A study of Mus musculus with 2 samples.

Results

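The genes for the collagens of fibrous tissue, types I, III, V, XII and XIV, were examined in RNA-sequencing of *Sox9* GFPHi chondrospheres. They were taken by symbol from a list of 8 chain genes, *Col1a1*, *Col1a2*, *Col3a1*, *Col5a1*, *Col5a2*, *Col5a3*, *Col12a1* and *Col14a1*, and all 8 were found, among 43 collagen genes and 23628 genes in all. The chondrospheres are colonies that grow from single cells, and these came from femoral heads of *Sox9* IRES-EGFP reporter pups at postnatal day 7. Cells were sorted for the highest GFP level and for lack of CD31, Ter119 and CD45, then kept for weeks under low oxygen in methylcellulose with FGF2, BMP4, IGF1, LIF and TGF-β1. The data hold 2 libraries of this condition, labelled MC-SOX9-GFPhi and named here replicate 1 and replicate 2. There is no control group, so no p-values were computed, and the spread given is that between these libraries. The study took each pup as its own biological replicate, but the labels do not tie these libraries to pups, so the spread may be technical.

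Fibrillar collagens are rods of 3 chains wound around each other. Collagen I, the main fibre of bone, tendon and skin, joins a pair of α1 chains to a single α2 chain, while collagen III is built from α1 chains alone. Collagen V starts and narrows collagen I fibrils, usually as a pair of α1(V) chains with an α2(V) chain, and α3(V) occurs in fewer tissues. Collagens XII and XIV do not form fibrils themselves but sit on fibril surfaces, and belong to the fibril-associated collagens with interrupted helices (FACIT). Cartilage uses mainly collagen II with IX and XI, and chondrocytes that flatten in monolayer culture are known to exchange collagen II for collagen I. The fibrous collagen genes therefore bear on which matrix a chondrocyte culture makes.

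The messages of *Col1a1*, *Col1a2* and *Col3a1* are known to carry a stem-loop around the start codon that the RNA-binding protein LARP6 recognises. The 30 bases around the start codon are shown for 7 of the genes, because they show how far chains of one collagen type resemble each other there. They were read from GENCODE M21 transcripts on GRCm38, 5′ to 3′ on the coding strand, with the start codon in capitals and 15 bases before it in the 5′ UTR.
Col1a1: gtctagggtctagacATGttcagctttgtg
Col1a2: gtctaagtggtagacATGctcagctttgtg
Col5a2: gtctcatatttagacATGatggcaaactgg
Col5a1: gcgcaccccgccggcATGgacgtacacacc
Col5a3: ccaggccccgctgggATGagaagctgccgg
Col12a1: gcttgaggcccaaacATGcagaccaggctt
Col14a1: gaggcagaaaataagATGatgatttggcag

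The windows of *Col1a1* and *Col1a2* were identical at 25 of 30 positions, the most of the pairs compared. Every window holds the start codon at the same place, so its bases match in each pair by design. Outside it, *Col1a1* and *Col1a2* matched at 22 of 27 positions. *Col5a2* matched both collagen I genes at 15, although its product pairs with α1(V). *Col5a1* and *Col5a2*, the usual partners in collagen V, matched at 10 (7 of 27 outside the start codon), and *Col5a1* matched *Col5a3* at 13. The FACIT genes *Col12a1* and *Col14a1* also matched at 13, but *Col12a1* matched both collagen I genes at 14, so that likeness was not particular to the FACIT pair. A match describes these letters and does not show binding. The windows lie at chr11:94936354-94936383 for *Col1a1*, chr6:4505825-4505854 for *Col1a2* and chr1:45502900-45502929 for *Col5a2*, each within 1 exon. *Larp6* itself was low, at 12.2 CPM (read counts scaled to a fixed library total) in replicate 1 against 3.77 CPM in replicate 2.

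*Col1a1* is the one member that the study also followed by quantitative PCR, and its primers are shown because they fix which part of the message that assay reads.
Forward primer: gatagggacttgtgtgaa
Reverse primer: agtggagagagagtagag
On GRCm38 the forward primer covers chr11:94952628-94952645 and the reverse primer chr11:94952767-94952784, an amplicon of 157 bases in the 3′ UTR. Each primer matched the transcripts of 1 gene. No primers for *Col1a2* or the other members are listed, so the PCR followed the α1(I) message without its α2(I) partner.

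The libraries were similar in depth. Steps between the lowest values put 1 read at about 0.0231 CPM in replicate 1 and 0.0237 CPM in replicate 2, so 3 reads correspond to 0.0693 and 0.0711 CPM, and this limit covers counting error only. Taking the 12631 genes that averaged 1 CPM or more, replicate 2 lay above replicate 1 by a median of 0.30 on the log2 scale. A trimmed mean of log ratios gave a shift of 0.28, and leaving the 10 highest genes out of the total gave 0.20. Chondrocyte markers were high in both libraries, with *Acan* (aggrecan) at 14170 and 12002 CPM and *Sox9* at 252 and 279 CPM, but the cartilage matrilins *Matn1* (902 and 29.2 CPM) and *Matn3* (741 and 53.1 CPM) were far lower in replicate 2.

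The members spanned a wide range of levels. To compare genes, CPM were divided by the kilobases of the transcript with the longest coding sequence. *Col1a2*, which encodes α2(I), was the highest member in both libraries, with 507 CPM per kilobase in replicate 1 and 490 in replicate 2 (mean 499 ± 12.4, SD, n = 2). *Col5a2*, for α2(V), followed at 268 and 284 CPM per kilobase (276 ± 11.3, SD, n = 2). The highest members were thus the α2 chains of collagens I and V, and both were nearly equal between the libraries on this scale.

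*Col1a1*, for α1(I), had 197 CPM per kilobase in replicate 1 and 98.4 in replicate 2 (148 ± 69.5, SD, n = 2). *Col3a1*, for the chain of collagen III, had 111 and 84.7 CPM per kilobase (97.7 ± 18.3, SD, n = 2). *Col5a1*, for α1(V), had 62.1 and 90.3 CPM per kilobase (76.2 ± 20.0, SD, n = 2). *Col1a1* was the highest of these 3 genes in both libraries, and *Col3a1* was above *Col5a1* in replicate 1 and below it in replicate 2.

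The FACIT genes were lower. *Col12a1*, for collagen XII, had 6.66 CPM per kilobase in replicate 1 and 19.0 in replicate 2, and *Col14a1*, for collagen XIV, had 9.63 and 0.367. *Col5a3*, for α3(V), was the lowest member, with 0.121 and 0.299 CPM per kilobase (0.739 and 1.83 CPM), or about 32 and 77 reads. Of the 28 pairs that the members form, 26 had the same order in both libraries. In the order of the means, neighbours differed by more than the SD of their log2 ratio between libraries for 4 of the 7 steps. The exceptions were *Col3a1* over *Col5a1* (log2 ratio 0.37 ± 0.65), *Col12a1* over *Col14a1* (2.58 ± 4.40) and *Col14a1* over *Col5a3* (3.31 ± 4.25; SD, n = 2 each). The place of *Col1a1* in replicate 2 rested on the length used, as it stood below *Col5a1* there with the coding sequence, with the union of exons or with no division.

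**Figure D1:**
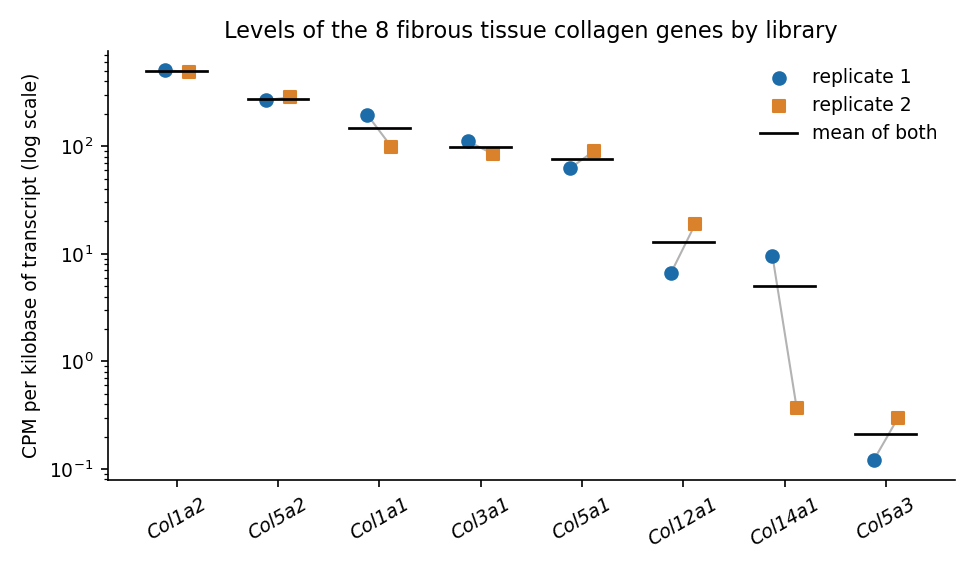
Level of each member in CPM per kilobase on a log axis, with a circle for replicate 1, a square for replicate 2 and a bar for their mean; no error bar is drawn, as both values are shown. *Col1a2* and *Col5a2* sit highest with little spread, while *Col14a1* runs from 9.63 in replicate 1 to 0.367 in replicate 2.

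The genes are scattered over the genome, apart from one pair. On GRCm38, *Col1a1* lies on the plus strand at chr11:94936224-94953042 with 51 exons, and *Col1a2* on the plus strand at chr6:4504814-4541544 with 52. *Col3a1* (plus strand, chr1:45311538-45349706) and *Col5a2* (minus strand, chr1:45374321-45503282) are neighbours whose 3′ ends face each other across 24614 bases with 0 annotated genes between them. Per kilobase, *Col5a2* stood at 2.42 times *Col3a1* in replicate 1 and 3.36 times in replicate 2. *Col5a1* lies at chr2:27886425-28039514 on the plus strand, and *Col5a3* at chr9:20770050-20815067 and *Col12a1* at chr9:79598991-79718831 on the minus strand. *Col14a1* lies on the plus strand at chr15:55307750-55520803. Exons of *Col5a1* overlap 99 bases of *2810430I11Rik* and 113 bases of *Gm13372* on the other strand, which had at most 1.87 CPM. An annotated miRNA gene, *Gm47302*, overlaps 141 exonic bases of *Col3a1*. Gene totals do not separate the transcripts of a gene, and whether strand was used in counting is not given in the sources used here.

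Against the collagens of cartilage, the fibrous collagens made up a small share. Summed per kilobase, the 8 members reached 1162 in replicate 1 and 1067 in replicate 2, and the 7 cartilage collagen genes (*Col2a1*, *Col9a1* to *Col9a3*, *Col11a1*, *Col11a2* and *Col27a1*) reached 34017 and 23513. The members were 3.22% and 4.11% of the level summed over all 43 collagen genes (3.66% ± 0.629, SD, n = 2), and the cartilage collagens were 94.3% and 90.5%. Cartilage collagens thus exceeded the members 29.3-fold in replicate 1 and 22.0-fold in replicate 2, a log2 ratio of members to cartilage collagens of -4.67 ± 0.29 (SD, n = 2). Much of that was *Col2a1*. Without it, the other cartilage collagens exceeded the members 4.16-fold and 3.55-fold, and the members took 16.8% and 17.1% of all other collagens. That last share differed little between the libraries (17.0% ± 0.168, SD, n = 2). It depended more on the length, with a mean of 13.7% for the union of exons and 20.2% for no division by length.

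Single members overlapped with cartilage collagens in level. *Col1a2* stood at rank 7 of the 43 collagen genes in both libraries, above *Col9a1* (491 and 284 CPM per kilobase) and below *Col9a2* and *Col10a1*. These places rest on the length used. With the union of exons *Col1a2* (218 and 211) fell below *Col9a1* (371 and 215) to rank 8 in both libraries, and with no division by length it stood above *Col9a2* and *Col10a1*, at rank 5 and then 4. *Col5a2* was at rank 9 and then 8, so in replicate 2 it equalled *Col9a1*, with 284 CPM per kilobase each. *Col27a1*, a fibrillar collagen of cartilage, lay below *Col1a2*, *Col5a2*, *Col1a1* and *Col3a1* in both libraries, at 67.8 and 39.2. *Col1a1* was at rank 10 in replicate 1 and 13 in replicate 2, where the collagen VI genes *Col6a1* (192), *Col6a2* (136) and *Col6a3* (227 CPM per kilobase) stood above it. Within the members, collagen I took 60.6% and 55.1% of the summed level and collagen V 28.4% and 35.1%. With the union of exons collagen I took 55.0% and 46.2%, and collagen V 34.3% and 44.1%. Per kilobase of the transcript, collagens I and V together were 89.7% ± 0.829 (SD, n = 2).

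**Figure D2:**
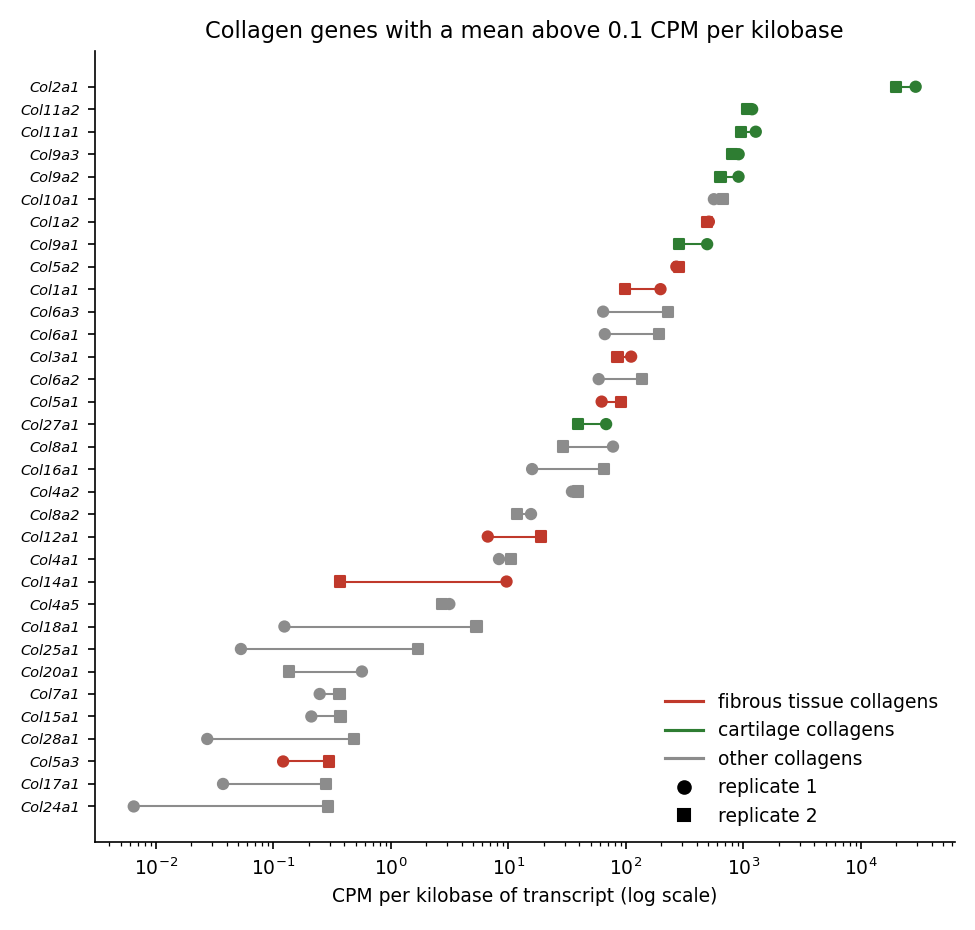
Collagen genes with a mean above 0.1, in CPM per kilobase on a log axis, with circles for replicate 1 and squares for replicate 2 joined by a line. Fibrous tissue collagens are red, cartilage collagens green and the rest grey; *Col1a2* lies among the collagen IX genes, and *Col14a1* has one of the longer lines.

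Ratios between chains were taken within each library, where they do not depend on scaling. In collagen I the α2 gene exceeded the α1 gene, the opposite of the chain numbers in the protein. Per kilobase, *Col1a2* was 2.58 times *Col1a1* in replicate 1 and 4.98 times in replicate 2. The log2 ratio of *Col1a1* to *Col1a2* was -1.37 and -2.32, a mean of -1.84 that exceeded its SD of 0.67 (n = 2). The ratio in replicate 2 less that in replicate 1 was -0.95 on the log2 scale, against counting errors of 0.0077 in replicate 1 and 0.010 in replicate 2. On the CPM scale *Col1a2* was nearly equal between the libraries, so there that difference lay almost wholly in *Col1a1*. Set against the median of all genes, both genes were lower in replicate 2, *Col1a2* by a log2 ratio of -0.35 and *Col1a1* by -1.30. Divided by the union of all annotated exons, which for *Col1a2* is 12426 bases against 5348 for the transcript, the ratio was -0.30 and -1.25, again below 0 in both libraries.

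In collagen V the α2 gene was again the higher. *Col5a2* was 4.32 times *Col5a1* in replicate 1 and 3.15 times in replicate 2. The log2 ratio of *Col5a1* to *Col5a2* was -1.88 ± 0.32 (SD, n = 2). *Col5a3* was lower than *Col5a1* by a log2 ratio of -8.62 ± 0.54 (SD, n = 2), or 514-fold in replicate 1 and 302-fold in replicate 2. Chains of collagens V and XI are known to join in mixed molecules, so *Col5a2* was also set against *Col11a1*, the α1(XI) gene. *Col11a1* was the higher, 4.74 times *Col5a2* in replicate 1 and 3.37 times in replicate 2 (log2 ratio of *Col5a2* to *Col11a1* -2.00 ± 0.35, SD, n = 2). The α2(V) gene therefore lay between its possible partners in both libraries, above *Col5a1* and below *Col11a1*.

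*Col3a1*, which shares fibrils with collagen I in soft tissues, was lower than *Col1a2* by 4.59-fold in replicate 1 and 5.78-fold in replicate 2. The log2 ratio was -2.36 ± 0.24 (SD, n = 2), the smallest spread of the 6 ratios computed. The FACIT pair had the largest. *Col14a1* was 1.44 times *Col12a1* in replicate 1, and *Col12a1* was 51.8 times *Col14a1* in replicate 2. The log2 ratio of *Col14a1* to *Col12a1* was 0.53 and -5.70, so its SD of 4.40 exceeded the size of the mean of -2.58, and per kilobase no order of these genes held in both libraries. Without division by length *Col12a1* was the higher in both, with log2 ratios of -0.30 and -6.53.

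**Figure D3:**
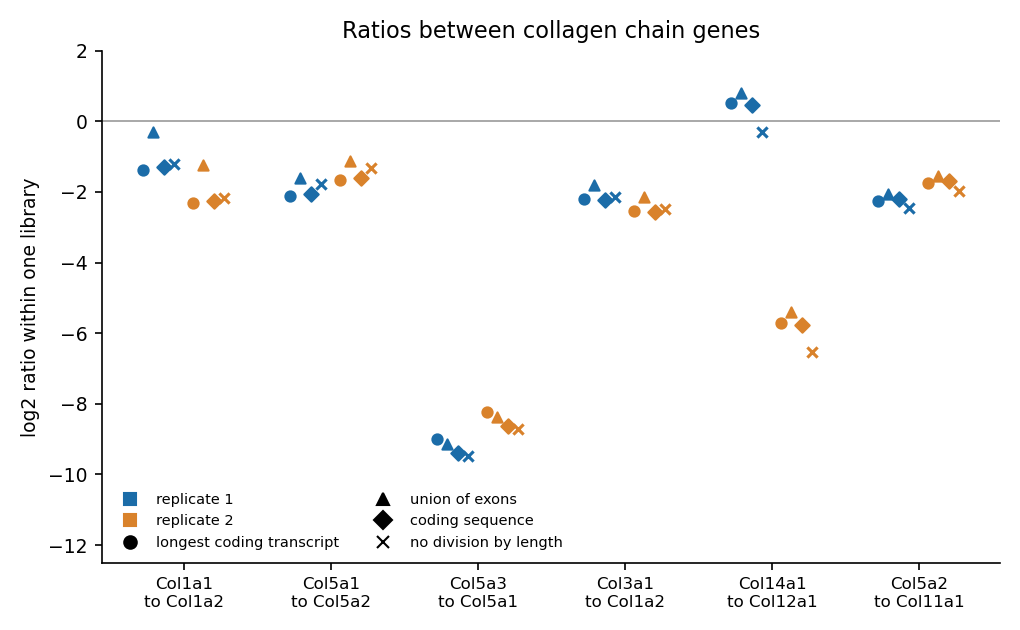
Log2 ratio between 2 collagen genes within a library, for 6 pairs, with replicate 1 in blue and replicate 2 in orange; the symbol shows the length used to divide CPM, and the grey line marks equal levels. *Col1a1* to *Col1a2* and *Col5a1* to *Col5a2* lie below 0 with each length, while *Col14a1* to *Col12a1* is 0.53 in replicate 1 and -5.70 in replicate 2 per kilobase of the longest coding transcript.

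The libraries were then compared gene by gene on the scale log2(CPM + 0.1), which understates changes of low genes. Of the same 12631 genes, 15.1% differed more than 2-fold, with 1435 higher (11.4%) and 468 lower (3.71%) in replicate 2. Of the 8 members, all of which passed that level, 3 did. *Col12a1* had 76.7 CPM in replicate 1 against 219 in replicate 2, a log2 ratio of 1.51 with a counting error of 0.029. *Col5a3* had 0.739 and 1.83 CPM, a log2 ratio of 1.20 with a counting error of 0.30. *Col14a1* had 62.2 and 2.37 CPM, about 2691 and 100 reads, a log2 ratio of -4.65 with a counting error of 0.15, and 6 of the 12631 genes had a lower ratio. With 1 library on each side these are differences between libraries, and fewer cells of a type cannot be told apart from less RNA per cell.

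*Col1a1* lay just inside the limit, at 1166 CPM in replicate 1 against 584 in replicate 2 (log2 ratio -0.999). Set against the median of all genes, its log2 ratio was -1.30. On that centred scale, 13.5% of all genes and again 3 of the 8 members were past 2-fold, now *Col1a1*, *Col12a1* (1.21) and *Col14a1* (-4.96), as *Col5a3* came to 0.89. *Col1a2* (2714 and 2620 CPM, log2 ratio -0.05) and *Col5a2* (1777 and 1883 CPM, 0.08) were nearly equal in CPM, and the sign for *Col5a2* turned with every other scaling, to -0.20 with the trimmed mean of log ratios. *Col3a1* had 616 and 471 CPM (-0.39), and *Col5a1* had 522 and 759 CPM (0.54). The members thus split 4 higher and 4 lower in CPM, with a median log2 ratio of 0.02 against 0.30 for all genes. That even split belongs to the CPM scale, since after centring only *Col5a1* (0.24), *Col5a3* and *Col12a1* were higher. All 7 cartilage collagens were lower in replicate 2, with 0 past 2-fold before centring and 2 after, and a median of -0.51. The partners within a collagen did not move alike, since on the log2 scale the ratio of *Col1a1* to *Col1a2* differed by -0.95 in replicate 2 and that of *Col5a1* to *Col5a2* by 0.46.

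**Figure D4:**
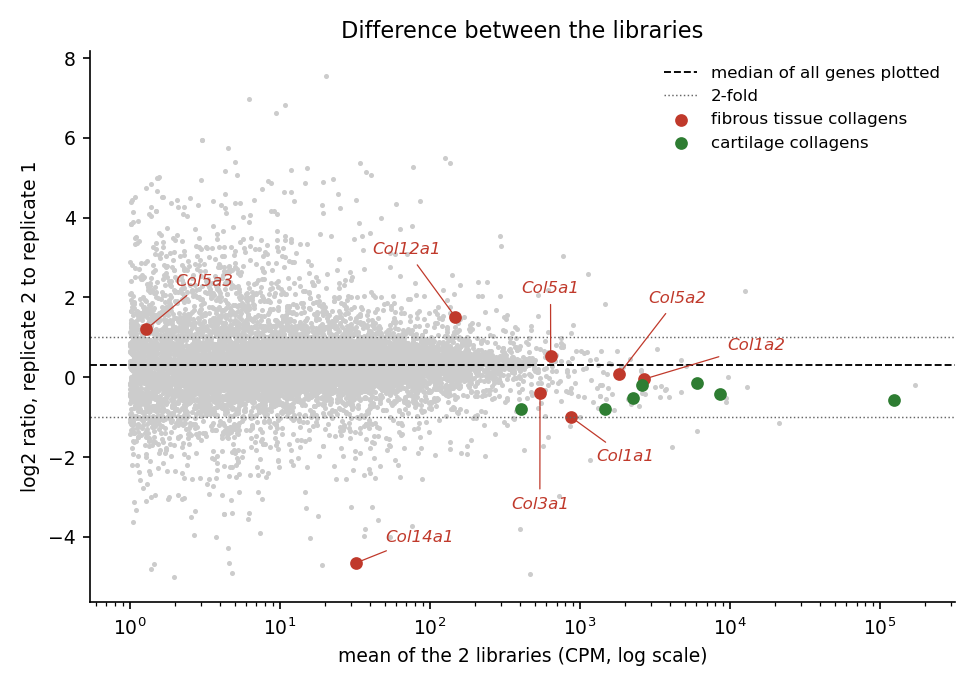
Log2 ratio of replicate 2 to replicate 1 against the mean in CPM (log axis) for 12631 genes, with the members in red, the cartilage collagens in green, the median of all genes (0.30) dashed and 2-fold dotted. *Col14a1* stands at the lower edge at -4.65, *Col12a1* and *Col5a3* lie above 2-fold, and *Col1a1* lies on the lower dotted line.

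The genes that fold and export procollagen were well measured. Of 21 genes, all reached a mean of 1 CPM, and 1 was higher and 1 lower past 2-fold, beside 11.4% and 3.71% of all genes. The median log2 ratio was 0.17 against 0.30 for all genes. *Serpinh1*, for the collagen chaperone HSP47, had 2403 and 2712 CPM, and *P4hb*, for the β subunit of prolyl 4-hydroxylase, had 1429 and 1813 CPM. The gene past 2-fold upward was *P4ha3*, for an α subunit of that enzyme, with 31.6 and 96.7 CPM (log2 ratio 1.61). The gene past it downward was *Larp6* (log2 ratio -1.67), which falls under the level set for naming and was singled out after its values were seen.

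Of 13 genes for propeptide cleavage and cross-linking, 12 reached 1 CPM, 2 were higher and 1 lower past 2-fold. The median log2 ratio was 0.41 against 0.30 for all genes, of which 11.4% were higher and 3.71% lower past 2-fold. The lysyl oxidases *Lox* (1839 and 2505 CPM) and *Loxl2* (1368 and 2164 CPM), which cross-link fibrils, were the highest. *Tll1*, for a tolloid-like protease that removes C-propeptides, had 8.06 and 42.0 CPM (log2 ratio 2.37), while *Bmp1*, for the main enzyme of that step, had 110 and 185 CPM. The N-propeptidase genes were low, *Adamts2* at 8.36 and 1.97 CPM (-2.03), *Adamts3* at 12.5 and 9.49 CPM and *Adamts14* at 2.98 and 6.33 CPM (1.06, or 0.76 after centring). *Adamts2*, *Adamts3*, *Adamts14* and *Bmp1* were named after their values were seen.

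The next list held 12 genes for proteins of fibril surfaces and fibrous matrix. Of these 10 reached 1 CPM, and 5 were lower in replicate 2 past 2-fold and 0 higher, with a median log2 ratio of -0.89, beside 3.71% of all genes lower and a median of 0.30. *Dcn*, for decorin, which binds collagen I fibrils, had 879 and 267 CPM (-1.72). *Lum*, for lumican, had 495 and 240 CPM (-1.05), *Ogn*, for osteoglycin, 104 and 30.3 CPM (-1.78), and *Sparc*, for a collagen-binding glycoprotein, 29449 and 13368 CPM (-1.14). *Abi3bp* had 75.2 and 7.83 CPM (-3.25). *Bgn*, for biglycan, a close relative of decorin, was level at 9750 and 9739 CPM, and *Tnc* and *Emilin1* had log2 ratios of 0.39 each. *Kera*, for keratocan of cornea and tendon, was listed at 0 in both libraries, and *Tnxb*, for tenascin-X of loose connective tissue, had 0.277 and 0.285 CPM. In replicate 2 *Dcn*, *Lum*, *Ogn*, *Sparc* and *Abi3bp* were thus lower together with *Col14a1* and *Col1a1*, while *Col12a1* was higher. The cartilage matrilins *Matn1* (-4.94) and *Matn3* (-3.80) and all 7 cartilage collagens were lower as well, so this direction was not particular to genes of fibrous matrix.

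Of 16 regulators known for the type I collagen genes, 15 reached 1 CPM, 2 were higher past 2-fold and 0 lower. The median log2 ratio was 0.46 against 0.30 for all genes, of which 11.4% were higher and 3.71% lower past 2-fold. *Ybx1* was the highest at 294 and 475 CPM. *Creb3l1*, for a membrane-bound factor that activates *Col1a1* in bone, had 82.8 and 170 CPM (1.04, or 0.73 after centring), and *Smad7*, for an inhibitor of TGF-β signalling, had 15.6 and 53.6 CPM (1.77). *Fli1*, at 4.83 and 2.49 CPM, had a log2 ratio of -0.93 and came past 2-fold lower after centring (-1.23). Any link between these genes and the lower *Col1a1* of replicate 2 was not tested.

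**Figure D5:**
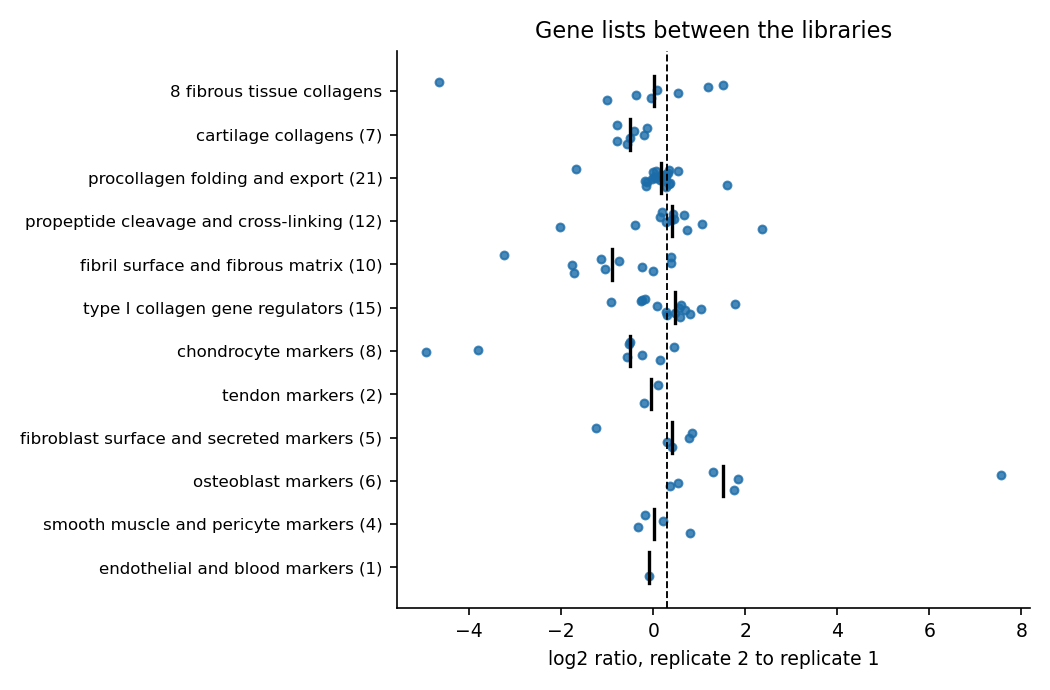
Log2 ratio of replicate 2 to replicate 1 for the members and for each gene list, a point per gene that averaged 1 CPM or more, the list median as a black bar, the number of genes in brackets and the median of all genes (0.30) dashed. Medians of the fibril surface list (-0.89) and the cartilage collagens (-0.51) lie to the left, that of the osteoblast markers (1.51) to the right.

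Markers of other cells that make fibrous collagens ranged from 0 to levels well above 1 CPM. Of 11 fibroblast markers, 5 reached 1 CPM, and the sum over the list was 51.2 CPM in replicate 1 against 38.4 in replicate 2. *Pi16*, *Dpp4* and *Clec3b* were listed at 0 in both libraries, *Thy1* and *Dpt* had at most 0.208 CPM, and *Pdgfra* had 2.03 and 2.71 CPM. The highest were *Vcam1* (35.6 and 14.9 CPM, -1.25) and *Ly6a* (6.73 and 8.31 CPM). Of 4 tendon markers, *Scx* (35.3 and 30.9 CPM) and *Mkx* (15.2 and 16.4 CPM), both transcription factors, were measured, while *Tnmd* was listed at 0 in both and *Thbs4* lay under 3 reads. On the CPM scale every member except *Col5a3* and *Col14a1* exceeded the sum of either list in both libraries. Levels of these markers in fibroblasts or tendon cells were not measured, so this does not show which cells held the collagen RNA.

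The sum over the osteoblast markers was 22.6 CPM in replicate 1 against 94.6 in replicate 2. Of the 8, 6 reached 1 CPM and 4 were higher past 2-fold, namely *Dmp1* (0.116 and 40.4 CPM), *Sp7*, *Alpl* and *Runx2* (16.2 and 39.6 CPM). After centring 3 were, as *Runx2* came to 0.98. Over all genes 11.4% were higher past 2-fold. *Ibsp* (2.24 and 3.27 CPM) and *Bglap2* (1.19 and 1.55 CPM) stayed within 2-fold. *Col1a1*, for a chain of the main collagen of bone, was lower in replicate 2, and any link to these markers was not tested. *Bglap*, for osteocalcin, had 0.0787 and 0.229 CPM. The paper describes highly differentiated, hypertrophic-like cells in the middle of the spheres. Levels of these markers in such cells or in osteoblasts were not measured, so the values do not show which cells held this RNA. Smooth muscle and pericyte markers were led by *Cspg4* (538 and 619 CPM), which chondrocytes also express, and *Acta2* (53.4 and 93.0 CPM), while *Myh11* had at most 0.139 CPM. Of 8 endothelial and blood markers 1 reached 1 CPM, the list summed to at most 2.91 CPM, and *Cdh5*, *Kdr* and *Tek* were listed at 0. The part of any of these cells in the collagen levels was not tested.

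The genes with levels most like those of the collagen I chains were sought among the 1098 genes that averaged 100 CPM or more, by the distance of log2(CPM + 0.1) over both libraries. For *Col1a1* they were *Clu* (1193 and 516 CPM, distance 0.18), *Fxyd6* (1335 and 673 CPM, 0.28) and *Xylt1* (906 and 599 CPM, 0.37). For *Col1a2* they were the collagen IX gene *Col9a3* (2771 and 2421 CPM, 0.12), *Ftl1* (2410 and 2709 CPM, 0.18) and *Serpinh1* (0.18). A pattern over 2 libraries is a level and a ratio, and 101 genes of that pool lay within 0.1 of the log2 ratio of *Col1a2*, against 11 for *Col1a1*.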

How the data were processed

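Poly(A) RNA of 2 libraries of chondrospheres was made into stranded libraries and sequenced as single-end reads of 50 bases. Per the labels and methods, the authors used STAR 2.7.3a for alignment to GRCm38 (annotation GENCODE M25) and Partek E/M for assignment to genes, and deposited read counts scaled to a fixed library total (CPM). Versions are those of the submitters' processing notes, which give Partek as 10.0.21.0801. An offset of 0.0001 CPM in every value was subtracted. Of values below 0.5 CPM, 65.2% and 61.6% were whole multiples (within 0.02 reads) of 1 read, so no count model was fitted.

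CPM were divided by the transcript with the longest coding sequence in GENCODE M21 on GRCm38, an earlier release than the authors'. All 43 collagen genes had a length. Log2 ratios between libraries used a pseudocount of 0.1 CPM, a mean of at least 1 CPM and a limit of 2-fold. Counting errors assume Poisson reads. The trimmed mean left out 30% of ratios and 5% of levels on each side.

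Members and the 15 gene lists (123 entries) were chosen with earlier results of these data known. One further marker and 1 start codon window are not reported here. Named from each list were its 2 highest genes and those past 2-fold with a mean of at least 10 CPM. Other genes were named for their role or where counts were small, after their values were seen. Other collagen genes were named where they exceeded the lower collagen I chain per kilobase in a library. The 3 nearest genes were named for each collagen I chain. Alternatives covered scaling, length, pseudocount, filter and leaving out each library. Python 3.11.15, numpy 2.4.6, pandas 2.3.3 and matplotlib 3.10.9 were used.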

Additional observations from a re-analysis of the deposited data

How the results depend on the processing

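For 18 results, 94 values were recomputed with a single choice changed, of which 79 moved by less than the SD between libraries (or less than 1.5 times for a count), 14 by more and 1 reversed. Leaving out 1 of 2 libraries moves a mean by less than 1 SD by arithmetic, so those 30 values carry little information. Of the 14, 8 were member levels per kilobase. Leaving the 10 highest genes out of the total raised means to 248 for *Col1a1*, 820 for *Col1a2*, 162 for *Col3a1*, 123 for *Col5a1* and 453 for *Col5a2*, and the union of exons lowered them to 215 for *Col1a2*, 55.4 for *Col3a1* and 191 for *Col5a2*. The reversed ratio was *Col14a1* to *Col12a1*, from -5.70 without replicate 1 to 0.53 without replicate 2. With the union of annotated exons as length, the log2 ratio was -0.77 for *Col1a1* to *Col1a2*, -1.36 for *Col5a1* to *Col5a2* and -1.97 for *Col3a1* to *Col1a2*, and with no division by length it was -1.54 for *Col5a1* to *Col5a2*. A count of 4355 genes past 2-fold was found among all genes above 0 (2817 higher, 1538 lower) and 682 among genes that averaged 10 CPM or more (530 and 152), or 21.5% and 8.63% of the genes tested. Scaling by the trimmed mean gave 973 higher and 732 lower, and centring on the median, chosen after seeing the data, gave 938 and 766. Over these settings 2 to 4 members were past 2-fold, and *Col12a1* and *Col14a1* were among them each time. *Col5a3* fell to 0.70 with a pseudocount of 1 CPM. No paired analysis was possible because the libraries form 1 group.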

Other observations

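Some collagen genes outside the members were also compared between the libraries, and were chosen after their values were seen. *Col16a1*, a FACIT gene like *Col12a1*, had 82.7 CPM in replicate 1 against 338 in replicate 2 (log2 ratio 2.03), so it moved the way of *Col12a1* and not of *Col14a1*. *Col20a1*, another FACIT gene, had 2.54 and 0.612 CPM, and *Col22a1*, which marks tissue junctions, was listed at 0 in both. *Col24a1*, a minor fibrillar collagen found with collagen I in bone, had 0.0462 CPM in replicate 1, under the level of 3 reads, and 2.06 CPM in replicate 2. *Col8a1*, a short network-forming collagen of vessel walls and cornea, had 396 and 148 CPM (log2 ratio -1.42). Each comparison rests on 1 library a side, and no cause was tested.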
